A study of Homo sapiens with 3 samples.

Results

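The REV-ERB genes NR1D1 and NR1D2 and the ROR genes RORA and RORB encode the nuclear receptors of the secondary loop of the circadian clock, and the occupancy of these 4 genes by BMAL1 and MAX was compared in MDA-MB-231 cells. A listed peak was assigned to a gene when its summit lay in the gene body or within 20 kb of any annotated transcription start site (TSS). By this rule 9 of the 14406 listed peaks belonged to these genes, 4 of them from the BMAL1 list and 5 from the MAX list. All 9 lay at NR1D1 or NR1D2, and 0 lay at RORA or RORB.

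The series holds chromatin immunoprecipitation followed by sequencing (ChIP-seq) from MDA-MB-231, a human cell line of triple-negative breast cancer, grown without a named treatment or circadian time and cross-linked with formaldehyde. There was 1 library with an anti-BMAL1 antibody, 1 with an anti-MAX antibody and 1 input library without immunoprecipitation, all from the same line with no genetic change named. With 1 library per antibody no value had a replicate check, no test between the antibodies could be made, and the intervals given cover counting error alone. The BMAL1 list held 756 peaks from 13866783 tags and the MAX list 13650 peaks from 11545865 tags, both called against 29308882 input tags.

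BMAL1 pairs with CLOCK and MAX pairs with partners such as MYC, a MXD protein or MNT, and each pair binds the E-box CACGTG. In the primary loop of the clock, BMAL1 and CLOCK activate the PER and CRY genes, whose products repress them. The REV-ERB proteins, encoded by NR1D1 and NR1D2, are nuclear receptors that bind heme and recruit corepressors, and they silence the BMAL1 gene. The ROR proteins compete with them for the same response element, whose core is the half-site AGGTCA, and activate the BMAL1 gene. REV-ERB genes are known targets of BMAL1 in many tissues, and the comparison here sets this repressor arm (NR1D1, NR1D2) beside the activator arm (RORA, RORB).

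The DNA under the summits of the REV-ERB genes is shown to make the position of the E-boxes visible. Each line holds the bases around 1 of these summits on the hg19 assembly, read 5′ to 3′ on the strand of the gene, with each CACGTG and each variant CACGTT or AACGTG (the E′-box) in capitals.
NR1D1 intron, MAX summit, chr17:38255562-38255712, minus strand: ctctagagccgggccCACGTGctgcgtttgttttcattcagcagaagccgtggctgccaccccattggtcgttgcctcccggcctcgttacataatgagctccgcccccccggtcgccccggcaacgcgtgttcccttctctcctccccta
NR1D1 promoter, MAX summit, chr17:38256927-38257077, minus strand: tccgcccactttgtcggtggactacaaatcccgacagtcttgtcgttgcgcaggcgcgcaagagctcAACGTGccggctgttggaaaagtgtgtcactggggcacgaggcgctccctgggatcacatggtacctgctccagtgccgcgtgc
NR1D1 upstream, summit of both factors, chr17:38264521-38264671, minus strand: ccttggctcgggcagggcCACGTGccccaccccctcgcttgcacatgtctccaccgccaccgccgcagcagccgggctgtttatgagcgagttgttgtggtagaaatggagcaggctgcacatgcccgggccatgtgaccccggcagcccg
NR1D1 far upstream, MAX summit, chr17:38269564-38269714, minus strand: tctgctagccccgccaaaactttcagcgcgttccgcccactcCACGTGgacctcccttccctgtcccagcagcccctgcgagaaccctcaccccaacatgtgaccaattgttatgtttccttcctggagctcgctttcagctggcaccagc
NR1D2 intron, BMAL1 summit, chr3:23987409-23987559, plus strand: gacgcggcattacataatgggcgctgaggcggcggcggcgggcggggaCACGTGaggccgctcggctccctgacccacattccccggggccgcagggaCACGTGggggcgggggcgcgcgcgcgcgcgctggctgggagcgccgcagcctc

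NR1D1 (ENSG00000126368.6_8, chr17:38249046-38256842, minus strand, 7.8 kb) encodes REV-ERBα, and it carried the strongest peak of the whole BMAL1 list. Over the 40001 bp assigned to it, 3 BMAL1 and 4 MAX peaks were listed. The density was 7.5 BMAL1 and 10.0 MAX peaks per 100 kb, against 0.0249 and 0.45 over the genome. Of 20098 protein-coding genes, 13 had 3 or more BMAL1 peaks by the same rule (0.0647%) and 1002 had 4 or more MAX peaks (4.99%). The summits of the NR1D1 peaks formed 4 sites, of which 3 were occupied by both factors and 1 by MAX alone.

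The site with the highest values lay in the first intron of NR1D1. The BMAL1 peak (chr17:38254909-38256111, 1203 bp) had its summit 1427 bp downstream of the TSS, a pileup of 198 fragments (exact Poisson 95% interval 171 to 228) and a fold enrichment of 127 over the local input. The pileup is the number of extended fragments that cover the summit, and the fold enrichment is its ratio to the background expected there. This peak ranked 1 of 756 by fold enrichment, with a −log10 p of 335. The MAX peak (chr17:38255200-38256303, 1104 bp) had a pileup of 50 fragments (37.1 to 65.9) and a fold enrichment of 39.0, which ranked 19 of 13650. Both factors were therefore near the top of their own list at the same intron, in a background of 1.01 times the genome level for BMAL1 and 1.0 times for MAX.

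The 2 summits in this intron did not coincide. They lay 222 bp apart, farther than in 92.1% of the 636 pairs of overlapping BMAL1 and MAX peaks, whose median distance was 54 bp, although 912 bp of the 2 peaks overlapped. The intron holds 3 E-boxes, and they fell in 2 places. The E-boxes at chr17:38255411-38255416 and chr17:38255396-38255401, with 9 bases between them, lay 0 and 14 bp from the BMAL1 summit, and the first of these held the summit itself. Distances are counted from the nearest base of the motif. The E-box at chr17:38255692-38255697 lay 55 bp from the MAX summit and 277 bp from that of BMAL1.

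At the NR1D1 promoter the 2 summits were close together. The BMAL1 peak (chr17:38256571-38257491, 921 bp) had its summit 118 bp upstream of the TSS, with a pileup of 110 fragments (90.4 to 133) and a fold enrichment of 58.1, rank 12 of its list. The MAX peak (chr17:38256756-38257650, 895 bp) had its summit 160 bp upstream, with a pileup of 27 fragments (17.8 to 39.3) and a fold enrichment of 17.1, rank 1041. No CACGTG lay within 100 bp of either summit. The motif found there was the E′-box at chr17:38257005-38257010, at 3 bp for MAX and 45 bp for BMAL1, and the nearest E-box inside the peaks was at chr17:38257301-38257306, at a distance of 341 bp for BMAL1 and 299 bp for MAX.

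The upstream site of NR1D1 had identical summits for both factors, 7754 bp from the TSS. The BMAL1 peak (chr17:38264228-38264894, 667 bp) had a pileup of 74 fragments (58.1 to 92.9) and a fold enrichment of 43.8, rank 22. The MAX peak (chr17:38264379-38264835, 457 bp) lay wholly within it, with a pileup of 25 fragments (16.2 to 36.9) and a fold enrichment of 17.8, rank 884. A single E-box, chr17:38264648-38264653, lay 52 bp from this common summit. The TSS nearest to the summit was that of the transcript ENSG00000279199, at 7099 bp. Among protein-coding genes NR1D1 was the nearest, before MSL1 at 13628 bp.

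MAX alone was listed 12797 bp upstream of the NR1D1 TSS (chr17:38269388-38269937, 550 bp). The peak had a pileup of 35 fragments (24.4 to 48.7), a fold enrichment of 14.8 and an E-box 28 bp from its summit. The summit lay in an exon of ENSG00000279199, an unverified transcript, and the nearest protein-coding TSS was that of MSL1, a subunit of a histone acetyltransferase complex, 8585 bp away. The background there was 1.85 times the genome level, the highest of the 9 peaks. No BMAL1 peak passed the threshold at this depth, and the list gives no value for BMAL1 at this E-box.

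NR1D2 (ENSG00000174738.13_6, chr3:23986777-24022108, plus strand, 35.3 kb) encodes REV-ERBβ and had 1 BMAL1 and 1 MAX peak in the 59.5 kb assigned to it. The BMAL1 peak (chr3:23987190-23987832, 643 bp) had a pileup of 93 fragments (75.1 to 114) and a fold enrichment of 50.0, rank 18 of 756. The MAX peak (chr3:23987401-23988125, 725 bp) had a pileup of 18 fragments (10.7 to 28.4), equal to the median of the MAX list, and a fold enrichment of 11.8, rank 3861 of 13650. BMAL1 thus stood among the strongest peaks of its list at NR1D2, and MAX stood at the 71.7 percentile of its own.

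The summits of the 2 factors also lay apart at NR1D2, and the peaks share their place with another gene. The 2 peaks overlapped by 432 bp, and the error of the summit positions was not estimated. The summits lay 353 bp apart, farther than in 97.0% of all pairs. The BMAL1 summit was 707 bp downstream of the outermost TSS, and the MAX summit 1060 bp. Taking the alternative TSS at position 23987612, whose transcript has no defined coding sequence, the BMAL1 summit lay 128 bp upstream and the MAX summit 225 bp downstream. NKIRAS1, which encodes a regulator of NF-κB inhibitors, starts on the opposite strand and overlaps NR1D2 head to head. Its TSS lay 598 bp away from the summit of BMAL1 and 245 bp away from that of MAX, and the MAX summit lay in its untranslated first exon and in an intron of NR1D2. Which of the 2 genes the peaks serve cannot be told apart from occupancy.

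The E-boxes of NR1D2 were at the BMAL1 summit and not at the MAX summit. Those at chr3:23987457-23987462 and chr3:23987507-23987512, with 44 bases between them, lay 22 and 23 bp to either side of the BMAL1 summit. They lay inside the MAX peak but 375 and 325 bp from the MAX summit, which had no E-box and no E′-box within 100 bp. Another E-box, at chr3:23987348-23987353, lay 131 bp from the BMAL1 summit and outside the MAX peak.

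**Figure D1:**
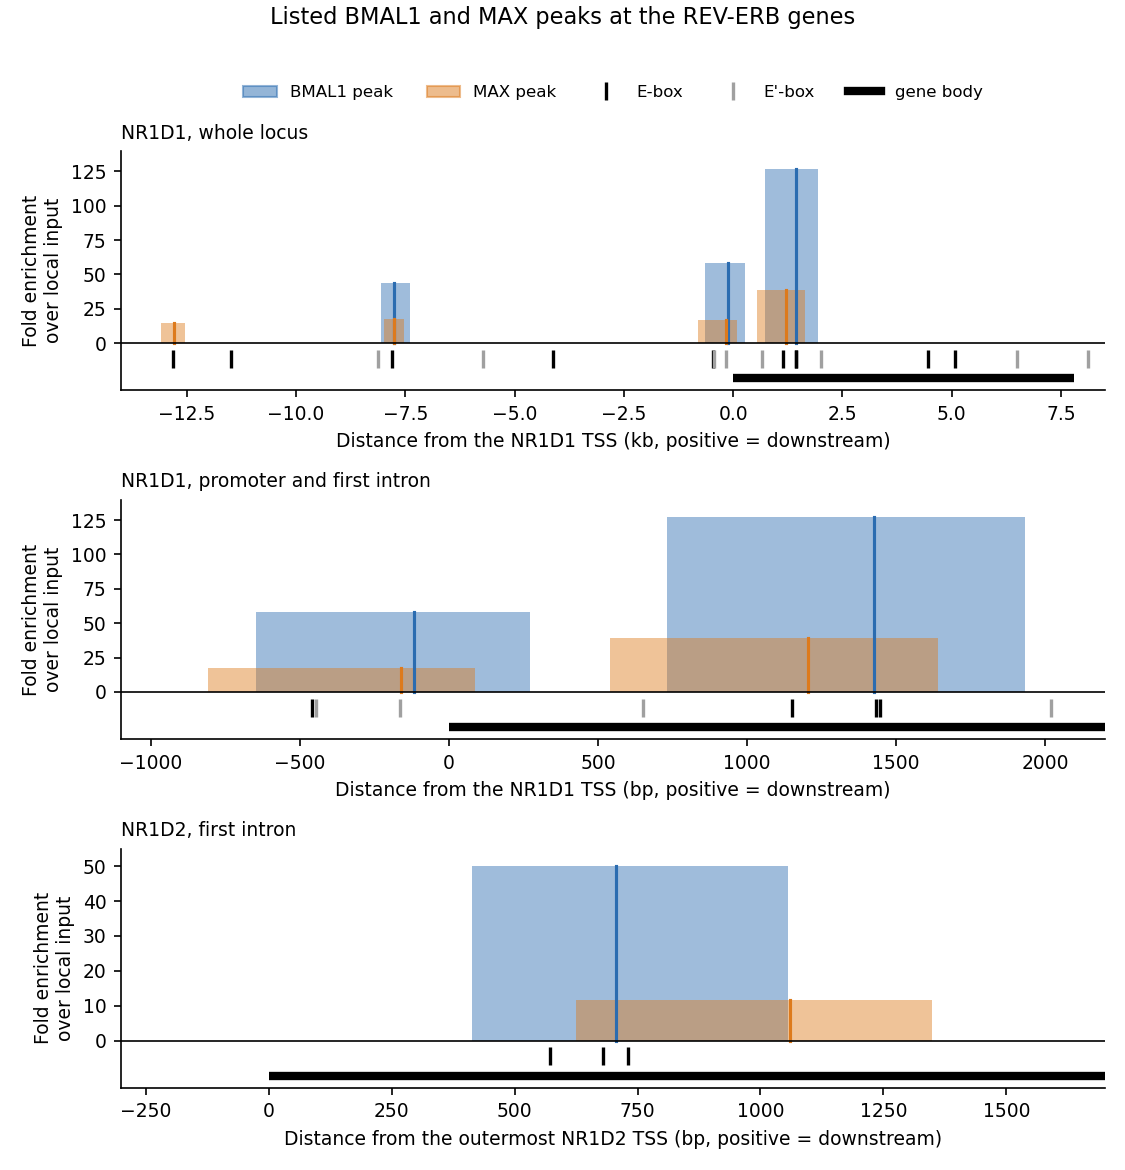
Fold enrichment over local input (height) of each listed BMAL1 (blue) and MAX (orange) peak against distance from the TSS, for the NR1D1 locus in kb, its promoter and first intron in bp, and the NR1D2 intron in bp, with a vertical line at each summit, ticks for E-boxes (black) and E′-boxes (grey), and the gene body as a black bar. The BMAL1 peak of 127 in the NR1D1 intron is the highest, its summit stands on a pair of E-boxes while the MAX summit stands 222 bp away, and the summits of both factors coincide at the site 7754 bp upstream.

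The order of the BMAL1 levels was the NR1D1 intron, the NR1D1 promoter, NR1D2 and the NR1D1 upstream site. The pileup of the intron exceeded that of the promoter by 1.8 times (95% interval 1.42 to 2.29). The promoter and NR1D2 could not be separated (ratio 1.18, interval 0.889 to 1.58), nor could NR1D2 and the upstream site (1.26, 0.916 to 1.73). All 4 BMAL1 peaks stood between the 97.1 and 99.9 percentile of fold enrichment of the BMAL1 list, whose median was 10.3.

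The MAX levels followed another order. By fold enrichment the NR1D1 intron came before the upstream site, the promoter, the far upstream site and NR1D2. The intron exceeded the upstream site by 2.0 times in pileup (1.21 to 3.37). The upstream site and the promoter could not be separated (ratio 0.926, 0.515 to 1.66), nor the promoter and the far upstream site (0.771, 0.449 to 1.31). The far upstream site exceeded NR1D2 by 1.94 times in pileup (1.07 to 3.65) with a higher local background, although the intervals of the 2 pileups overlap, and their fold enrichments of 14.8 and 11.8 were closer. The 5 MAX peaks spread from the 71.7 to the 99.9 percentile of the MAX list, whose median fold enrichment was 9.73.

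All 4 BMAL1 peaks at the REV-ERB genes overlapped a MAX peak, beside 84.1% of the BMAL1 list, so this share is near that of the list. Of the 5 MAX peaks, 4 had a BMAL1 partner (80%), beside 4.67% of the MAX list. NR1D1 holds 3 of these BMAL1 peaks and 4 of these MAX peaks. The peaks are not replicates, and their shares are a description. In each of the 4 pairs the fold enrichment of BMAL1 was the higher, by 3.25 times in the NR1D1 intron, 3.39 times at the promoter, 2.46 times upstream and 4.24 times at NR1D2. Over all 636 pairs BMAL1 was the higher in 34.9%, and the median ratio was 0.793. The ratios at the REV-ERB genes stood between the 95.6 and 99.4 percentile of all pairs. High ratios went with strong BMAL1 peaks in general. In the 22 pairs with a BMAL1 fold enrichment of at least 43.8, which include these 4, BMAL1 was the higher in 22 and the median ratio was 2.9, with a range of 1.44 to 6.96. The antibodies, duplicate limits and depths of the 2 libraries differ, so a ratio across them gives an order of sites and not of bound molecules.

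**Figure D2:**
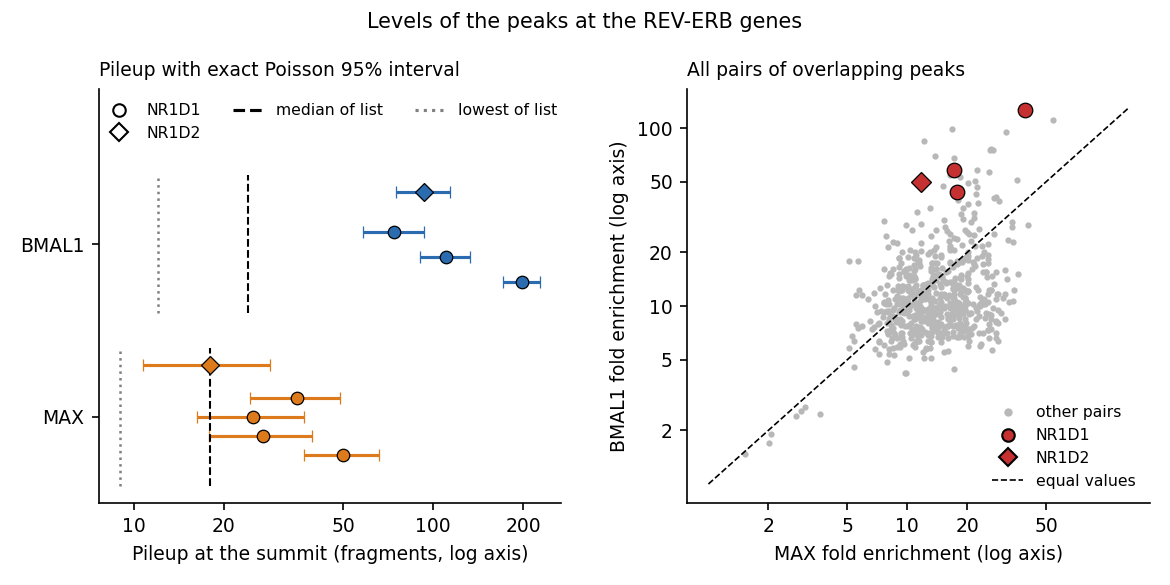
Left, the pileup at the summit (fragments, log axis) of each BMAL1 and MAX peak of NR1D1 (circles) and NR1D2 (diamonds) with exact Poisson 95% intervals, beside the median (dashed) and lowest (dotted) pileup of each list; vertical offsets only separate the points. Right, BMAL1 against MAX fold enrichment (log axes) for the 636 overlapping pairs, where the 4 REV-ERB pairs (red) lie above the line of equal values with ratios of 2.46 to 4.24.

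E-boxes at the summits of the REV-ERB genes were read beside those of each list. CACGTG lay within 100 bp of the summit in 3 of 4 BMAL1 peaks, beside 75.4% of the BMAL1 list, and in 3 of 5 MAX peaks, beside 21.2% of the MAX list. With the E′-box counted, these were 4 of 4 beside 80.4% and 4 of 5 beside 26.2%. All 9 peaks held CACGTG somewhere between their ends, beside 81.7% of BMAL1 and 29.8% of MAX peaks. For BMAL1 the presence of an E-box is the usual case for the list. At least 2 E-boxes within 100 bp were found at 2 of the 4 BMAL1 summits, the NR1D1 intron and NR1D2, beside 15.1% of the list, and at 0 of the 5 MAX summits, beside 1.51%.

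Few E-boxes of the genome lay under a peak. Those of the REV-ERB regions, where peaks are listed, did so more often, and their counts are a description. Of 11 E-boxes in the region of NR1D1, 6 lay under a listed peak, and of 9 at NR1D2, 3 did. Over the genome 1.79% of 274234 E-boxes lay under a peak of either list. In the region of RORA 0 of 83 E-boxes were under a peak, and in that of RORB 0 of 12. These counts follow from the lack of a listed peak in both regions and add nothing to it. The half-site AGGTCA, at which REV-ERB and ROR proteins bind, lay in 2 of the 4 BMAL1 peaks and 2 of the 5 MAX peaks, those of the NR1D1 intron and promoter, and within 100 bp of none of the 9 summits. It was found in 28.6% of BMAL1 and 25.5% of MAX peaks in general, searched on both strands.

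RORA (ENSG00000069667.16_13, chr15:60780483-61521501, minus strand, 741 kb) encodes the ROR receptor known for its role in the cerebellum and in immune cells, and had no listed peak of either factor. At the density of the whole lists, taken as even over the genome, its 761 kb would hold 3.42 MAX and 0.189 BMAL1 peaks. Of protein-coding genes of like length to RORA, however, only 48.4% had any MAX peak. The nearest MAX summit, with a fold enrichment of 15.6, lay 33.0 kb from the nearest RORA TSS and 9.18 kb beyond the 3′ end of the gene, in the untranslated sequence of ICE2, which encodes a subunit of a complex that promotes transcription of small nuclear RNA genes. The nearest BMAL1 summit lay 1542 kb away. RORA has 14 annotated TSSs, and 1 E-box lay within 1 kb of any of them.

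RORB (ENSG00000198963.11_7, chr9:77112251-77308093, plus strand, 196 kb), known for its expression in the retina and brain, also had no listed peak. Its 216 kb would hold 0.97 MAX and 0.0537 BMAL1 peaks at the same even density, and 58.0% of genes of like length had a MAX peak. The nearest MAX summit lay 337 kb and the nearest BMAL1 summit 4083 kb from a RORB TSS. E-boxes were present in both ROR genes, at 10.9 per 100 kb in RORA and 5.56 in RORB, beside 9.03 over the genome, 27.5 at NR1D1 and 15.1 at NR1D2. No E-box lay within 1 kb of a RORB TSS. The E-boxes nearest to a TSS of each gene are shown as sites with the motif and no listed peak, on hg19 and the strand of the gene, with the E-box in capitals. That of RORA lay 328 bp from an internal TSS and that of RORB 1962 bp from its outermost TSS.
RORA, chr15:60804599-60804654, minus strand: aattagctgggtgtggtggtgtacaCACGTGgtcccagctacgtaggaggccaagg
RORB, chr9:77110259-77110314, plus strand: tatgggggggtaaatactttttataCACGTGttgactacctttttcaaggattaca

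The absence of a peak has to be read against depth. Whether reads could be placed uniquely at the E-boxes shown for RORA and RORB was not tested. Where the background was at the genome level, the weakest listed peak had 12 fragments and a fold enrichment of 7.79 for BMAL1, and 9 fragments and 7.02 for MAX. The BMAL1 peaks of the REV-ERB genes exceeded that limit by a wide margin, whereas a site bound at a lower level in RORA or RORB was not detectable at this depth. Expression of the 4 genes was not analysed here, and its part in the contrast was not tested.

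The contrast between the arms was also read against all genes. Both REV-ERB genes had a BMAL1 peak and both had a MAX peak, whereas 4.99% of the 20098 protein-coding genes had a BMAL1 peak, 54.9% a MAX peak and 4.83% both. A MAX peak at NR1D1 and NR1D2 was thus the usual case, and a BMAL1 peak was not. For the ROR genes the absence of BMAL1 was the usual case. The shares in genes of like length were close to these. Among genes of 0.5 to 2 times the length of NR1D1, 5.84% had a BMAL1 and 55.0% a MAX peak, and for NR1D2 the shares were 4.85% and 58.4%. Among genes of like length to RORA, 6.93% had a BMAL1 and 48.4% a MAX peak, and for RORB 4.99% and 58.0%. Genes as long as RORA lacked a MAX peak about as often as they had one, so its absence from RORA is near the background.

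**Figure D3:**
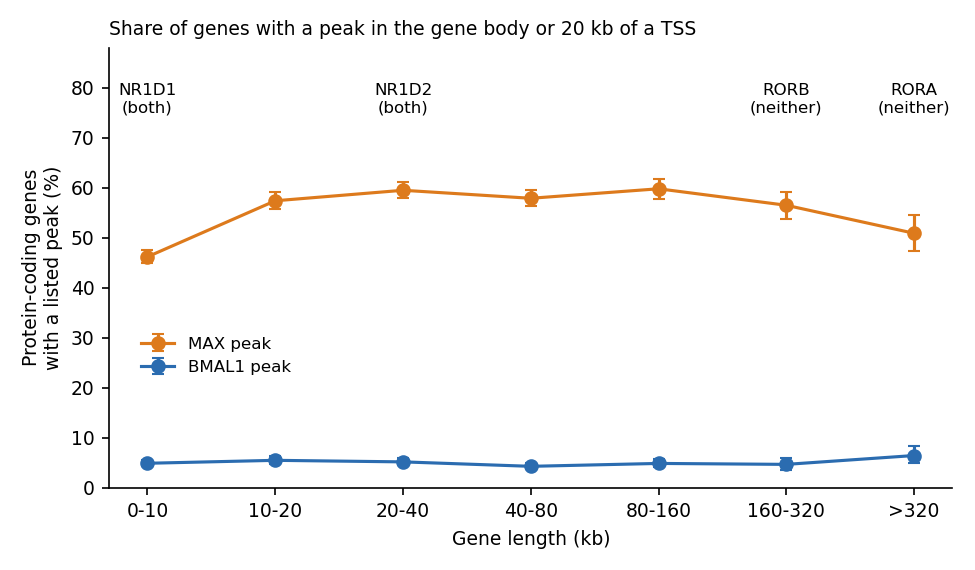
Share of protein-coding genes with a listed MAX (orange) or BMAL1 (blue) peak in 7 classes of gene length in kb, with 95% intervals that cover counting error, and the class of each receptor gene named above with the factors listed there. The MAX share is lowest at both ends, 46.2% in genes under 10 kb and 50.9% in genes over 320 kb, and stands between 56.5% and 59.8% in the 5 classes between, and the BMAL1 share stays between 4.3% and 6.46%.

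**Figure D4:**
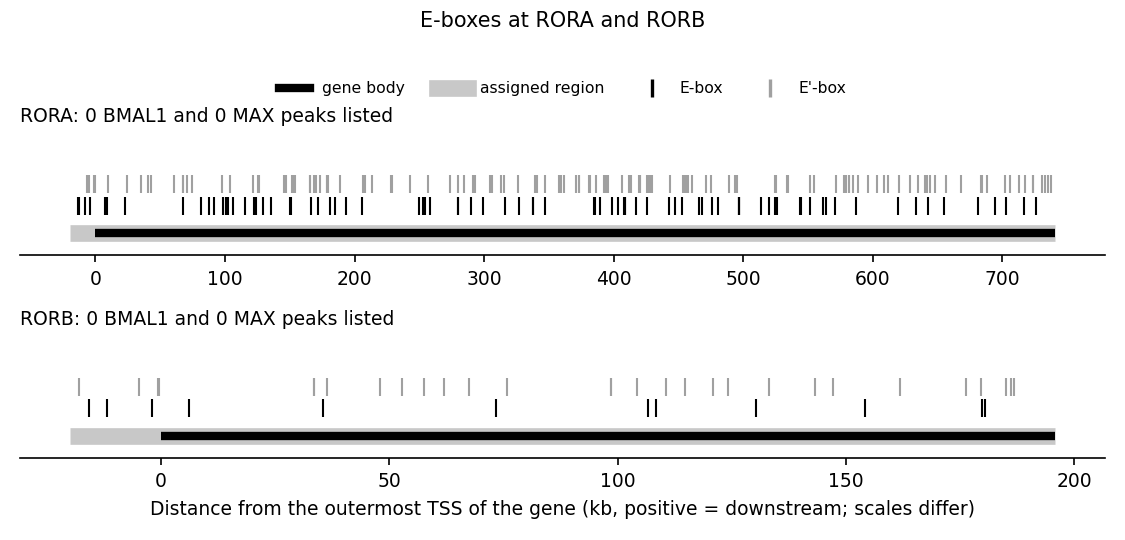
Gene body (black bar), the region assigned to the gene (grey), E-boxes (black ticks) and E′-boxes (grey ticks) of RORA and RORB against distance from the outermost TSS in kb, with scales that differ between genes. No peak is listed at either gene, which hold 83 and 12 E-boxes.

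Of 19 other genes of the loop, 1 had a BMAL1 peak, 14 a MAX peak, 1 both and 5 neither. Among all protein-coding genes 4.99% had a BMAL1 peak and 54.9% a MAX peak, so the BMAL1 count is near the background. Among 5 genes regulated through the shared response element, CRY1, a repressor of the primary loop, had BMAL1 at a fold enrichment of 75.6 and MAX at 26.0 close to its TSS. The BMAL1 gene itself had a MAX peak of 8.96 at 16144 bp from its TSS and no BMAL1 peak, NFIL3, a repressor that competes for D-boxes, had MAX at 11.1, and CLOCK had neither. NPAS2, which can replace CLOCK, had MAX at 24.8, but that summit was nearest to RPL31.

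Of 4 subunits of the corepressor complex that REV-ERB recruits, 3 had a MAX peak and 0 a BMAL1 peak, again beside 54.9% and 4.99% of all genes, as for the groups of 5 genes that follow. TBL1X, a subunit of this complex, had MAX at 12.7 beside its TSS. The strongest of the 3 MAX peaks counted for NCOR1 was nearest to PIGL. The peak counted for HDAC3, the deacetylase of the complex, was nearest to DIAPH1. Of 5 coactivators used by ROR proteins, 2 had MAX, with 14.0 at CREBBP, an acetyltransferase, and 7.62 at PPARGC1A, and 0 had BMAL1. All 5 regulators of REV-ERB stability had MAX, which 54.9% of all genes had, between 4.62 at the ubiquitin ligase gene HUWE1 and 9.67 at the kinase gene CSNK1E, and 0 had BMAL1, which 4.99% of all genes had. Counts over so few genes are a description.

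The receptor genes next to NR1D1 and NR1D2 were examined because the assignment rule reaches across genes. THRA is a thyroid hormone receptor gene whose 3′ end overlaps that of NR1D1 on the opposite strand. It received the intron and promoter peaks of NR1D1 by this rule. Its own BMAL1 peak had a fold enrichment of 11.8 and a pileup of 28 fragments (18.6 to 40.5), at the 63.0 percentile of the list, and its own MAX peak had 6.77. RARA, a retinoic acid receptor gene near THRA, had MAX at 13.2 and no BMAL1. On chromosome 3, THRB had 2 BMAL1 peaks, the stronger of 7.94, and 1 MAX peak of 5.50.

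The genes most like each REV-ERB gene were sought by the distance between the log2 fold enrichments of the strongest BMAL1 and the strongest MAX peak, which rests on 2 libraries. For NR1D1 the nearest of 968 genes were PER1, ENSG00000263620 and TMEM107 (log2 distance 0.51). Their strongest peaks are the same pair, with fold enrichments of 111 and 53.9, so these genes stand for a single site. For NR1D2 the nearest of 969 genes were PER2 with 47.4 and 15.2 (0.37), FAM83E with 54.8 and 16.4 (0.50) and CSNK1D with 70.1 and 13.8 (0.54). PER1 and PER2 encode repressors of the primary loop, and CSNK1D encodes a kinase that phosphorylates PER proteins.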

How the data were processed

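ChIP-seq was made from MDA-MB-231 cells with 1 BMAL1, 1 MAX and 1 input library. According to the methods and labels, the authors aligned reads to hg19 with BWA 0.6.2 and called peaks with MACS2 2.0.9 for each antibody against the same input. The deposited pileup is a signal, the height of fragments extended to 300 bp, not scaled by depth. Fold enrichment, as deposited, is the ratio of that pileup to the background estimated from the local input, and the deposited −log10 p and −log10 q values are those of the peak caller. At most 2 tags per position were kept for BMAL1 and 1 for MAX. The headers give a p cutoff of 1e-05 and the methods 1e-08, and all listed peaks were used.

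Summits were assigned to genes of GENCODE release 44 on GRCh37, the assembly that hg19 names, in the gene body or within 20 kb of a TSS. Background shares cover protein-coding genes on chromosomes 1 to 22 and X. Peaks were paired at 1 bp of overlap or more. The E-box, E′-box and half-site motifs were searched on both strands. Intervals are exact Poisson for pileups, exact for pileup ratios and Wilson for shares by gene length. No test between groups was possible with 1 library per antibody. The genes named were the 4 receptor genes, lists of loop genes and neighbouring receptors, genes at their peaks, and the 3 most alike in strongest fold enrichment that share no peak with them. Some genes and sequences under this rule are not reported here. The genes and lists were chosen with earlier results of these data known. Position, overlap and motif steps were tested on simulated data. Python 3.11.15, numpy 2.4.6, pandas 2.3.3, scipy 1.17.1 and matplotlib 3.10.9 were used.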

Additional observations from a re-analysis of the deposited data

How the results depend on the processing

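Of 67 alternative values for 21 results, 37 equalled the main value, 14 were classed as moved and 1 as reversed. The lowest −log10 p of the 9 receptor peaks was 14.2, so p cutoffs of 1e-08 and 1e-12 could not change their counts. With 10 kb around a TSS the share of genes with a peak was 3.75% for BMAL1 and 49.0% for MAX, in place of 4.99% and 54.9%. The MAX share was 53.5% without the gene body, 56.4% in genes of at least 100 kb and 52.4% with peaks of p 1e-08 or lower. With 50 kb around a TSS in place of 20 kb, MAX peaks rose from 5 to 8 at the REV-ERB genes and from 0 to 1 at RORA and RORB. The log2 ratio of the strongest peak of NR1D1 over that of NR1D2 was 1.34 for BMAL1 and 1.72 for MAX. It was 0.03 and 0.48 with percentiles within each list, and 0.22 and 0.56 with the median over the peaks of each gene. MAX peaks with CACGTG numbered 3 within 100 bp of the summit, 5 anywhere in the peak and 1 within 50 bp. With TSSs of protein-coding transcripts only, the BMAL1 summit of NR1D2 moved from −128 to 707 bp and its MAX summit from 225 to 1060 bp. With summits within 100 bp in place of overlap, 2 of 4 BMAL1 and 2 of 5 MAX peaks were shared. Depth limits the weak sites, since a peak in the genome background needed 12 fragments for BMAL1 and 9 for MAX. No paired analysis was possible because there was 1 library per antibody and no result came from a test.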
